A study of Mus musculus with 8 samples.

Results

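The Hox cluster genes encode homeodomain transcription factors that stand in 4 genomic clusters, HoxA to HoxD. They were taken as every row whose gene symbol consists of Hox, a cluster letter from a to d and a paralogue number, which gave 39 of the 55487 gene rows in the count table: 11 in HoxA, 10 in HoxB, 9 in HoxC and 9 in HoxD. The cells were mouse E14-Tg2a embryonic stem cells, either the parental line (genotype WT) or the Tbx1-/- line 4D, after 6 days in serum-free medium that directs them to precardiac mesoderm. No agent was given to either line beyond the differentiation culture that both shared. Each line gave 4 biological replicates, and the 8 poly(A) RNA libraries were made with QuantSeq, which sequences the 3′ end of each transcript. The mutant genotype is represented by the line 4D alone, so the genotype and the history of that line cannot be told apart. The p-values measure the spread between these replicate cultures of 1 line each.

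Paralogue numbers run from 1 to 13. Low-numbered genes lie at the 3′ end of a cluster and are expressed early and far forward in the embryo, and high-numbered genes lie at the 5′ end and act towards the tail, the order known as colinearity. Hox proteins choose their DNA sites together with TALE partners of the Pbx, Meis and Pknox families. Retinoic acid, which opens the anterior end of the clusters, Cdx factors, which act on the middle of the clusters, and the Polycomb and trithorax complexes, which close and open their chromatin, are known regulators. In the early heart field, Hoxb1 and Hoxa3 mark posterior second heart field progenitors that add cells to the venous and outflow poles. Tbx1, the gene mutated in line 4D, is a T-box factor of the second heart field and pharynx.

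Libraries held between 3803561 and 6293907 counts assigned to genes, and Hox genes took from 0.101% to 0.197% of them. One gene, CT010467.1, took from 8.90% to 12.985% of the counts in 7 libraries and 17.7% in mutant library 4, which was also the shallowest. Tbx1 itself had 39, 65, 38 and 22 counts in parental libraries 1 to 4 and 3, 0, 1 and 0 counts in mutant libraries 1 to 4, so the labels were borne out in every library (log2 fold change -5.08 ± 0.88 SE, edgeR adjusted p = 0.00432). Of the 11 precardiac and cardiac markers all had counts enough to be tested, and their summed level was 1567 to 2129 CPM (counts scaled to a common library total) in the parental and 1616 to 1834 CPM in the mutant libraries, led by Hand1, Hand2 and Kdr. Within that list 4 genes had positive and 7 negative fold changes, 2 higher and 4 lower at an unadjusted edgeR p under 0.05. Of all tested genes, 6.01% were higher and 5.92% lower at that p. Without overlap between the lines, 3.49% of all tested genes were higher and 4.04% lower. Gata6, a GATA factor of heart mesoderm and endoderm, rose without overlap (0.72 ± 0.13, edgeR adjusted p = 0.00516). Hand2 (0.40 ± 0.10), Hand1 (-0.39 ± 0.12) and Isl1 (-0.67 ± 0.19) also did not overlap between the lines but were not called. The troponin gene Tnnt2 (-1.25 ± 0.39) was not called either. It measured 411, 276, 129 and 84.9 CPM in parental libraries 1 to 4 and 119.9, 115, 113 and 29.97 CPM in mutant libraries 1 to 4. Kdr, Gata4 and Nkx2-5 also fell in order over the parental libraries, and the other genes of the list did not. Nkx2-5 and Tbx5 added little to the sum and were not called. Nkx2-5 ran from 1.90 to 24.5 CPM in the parental and from 0 to 7.08 CPM in the mutant libraries. Tbx5 ran from 2.23 to 17.3 CPM in the parental and from 0 to 7.63 CPM in the mutant libraries. Mesp1, which marks an earlier stage, stayed at 4.40 CPM or less in every library. Neural, neural crest and pluripotency lists summed to at most 38.5, 9.15 and 11.4 CPM in any library, with the motor neuron factor Olig2 at 0 in all 8. The 7-gene endoderm list, all tested, summed to 277 to 363 CPM in the parental and 333 to 380 CPM in the mutant libraries. In it Foxa2 (-1.93 ± 0.42, edgeR adjusted p = 0.0254) and the keratin gene Krt18 (-0.76 ± 0.15, edgeR adjusted p = 0.0133) fell, and Gata6, which both lists hold, rose. The primitive blood list stood apart between the lines, at 112 to 164 CPM in the parental and 601 to 876 CPM in the mutant libraries, with Hbb-y, Hbb-bh1 and Hba-x called higher by edgeR. The part of these lists in the Hox values was not tested. In bulk libraries such as these, fewer cells of a type and less RNA per cell cannot be told apart.

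Sequence just upstream of a start site is shown for 4 genes whose counts the results turn on: Hoxb8 and Hoxd9, the genes that were called lower, Hoxb1, the gene with the lowest fold change, and Hoxd13, the gene with the highest. Each run is the 200 bases from 250 to 51 before the RefSeq start (assembly GRCm38.p6, all on the + strand), and capitals mark matches to the motifs searched. Hoxb8 lies at chr11:96281655-96281854, Hoxd9 at chr2:74697513-74697712, Hoxb1 at chr11:96365508-96365707 and Hoxd13 at chr2:74667975-74668174.
Hoxb8: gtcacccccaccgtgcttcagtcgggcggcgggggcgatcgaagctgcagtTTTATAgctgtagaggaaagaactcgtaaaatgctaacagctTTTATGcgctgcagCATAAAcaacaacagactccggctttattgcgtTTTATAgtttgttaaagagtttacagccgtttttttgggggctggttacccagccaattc
Hoxd9: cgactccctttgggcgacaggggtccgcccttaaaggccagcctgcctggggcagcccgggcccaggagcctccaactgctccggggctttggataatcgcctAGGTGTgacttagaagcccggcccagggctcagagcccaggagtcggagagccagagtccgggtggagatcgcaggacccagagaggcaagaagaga
Hoxb1: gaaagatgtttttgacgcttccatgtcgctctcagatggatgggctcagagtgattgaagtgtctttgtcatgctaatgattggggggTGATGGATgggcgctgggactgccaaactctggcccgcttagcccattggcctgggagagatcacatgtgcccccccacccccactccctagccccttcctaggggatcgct
Hoxd13: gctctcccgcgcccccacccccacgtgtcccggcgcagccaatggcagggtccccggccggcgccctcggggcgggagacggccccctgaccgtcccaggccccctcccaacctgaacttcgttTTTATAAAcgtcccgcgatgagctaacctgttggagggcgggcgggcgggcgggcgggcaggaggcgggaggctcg

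The motifs were the Cdx cores TTTATG and TTTATA, the T-box half-site AGGTGT, the nuclear receptor half-site AGGTCA and the Hox-Pbx composite TGATNNAT, each searched on both strands. The Hoxb8 window held 2 matches to TTTATG, of which 1 reads CATAAA on the strand shown, and 2 to TTTATA. In the Hoxd9 window the single match was to AGGTGT. The Hoxb1 window held 1 match to TGATNNAT, the form in which Hoxb1 and Pbx are known to bind the Hoxb1 autoregulatory element. The Hoxd13 run in capitals is a pair of overlapping matches to TTTATA, 1 on each strand. Of 24 RefSeq windows for 22 of the 39 Hox genes, 4 held TTTATG, 3 TTTATA, 2 AGGTGT, 6 AGGTCA and 3 TGATNNAT. Among all 32817 promoter windows of the same length, 8.79%, 9.14%, 9.86%, 11.4% and 6.45% held these motifs, in the same order. A match describes letters in the window, and binding was not measured.

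The comparison of the lines asks which Hox genes differ in cells that lack Tbx1. Levels are CPM scaled by TMM, a factor per library that offsets differences in composition, and a gene was called when its edgeR quasi-likelihood p, adjusted by Benjamini-Hochberg over all 13280 genes tested, fell under 0.05. Fold changes are log2 of mutant over parental with their standard errors. Of the 39 Hox genes, 33 had counts enough to be tested. Hoxb8 and Hoxd9 fell in the mutant line and no Hox gene was called higher, where 0.67% of all tested genes were called lower and 0.745% higher. At an unadjusted edgeR p under 0.05 there were 11 Hox genes lower and 4 higher, against 5.92% and 6.01% of all tested genes. DESeq2 called 1 Hox gene higher, Hoxa11, and limma-voom called 0.

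Among the 33 tested Hox genes, 23 had a negative and 10 a positive log2 fold change, with a median of -0.40, beside a median of 0.0 over all tested genes, of which 49.8% were negative. The signs differed with position in the cluster. Paralogues 1 to 4 had 8 of 10 tested genes negative (median -0.63), paralogues 5 to 8 had 11 of 11 negative (median -0.51), and paralogues 9 to 13 had 8 of 12 positive (median 0.31). When the genes were divided at paralogue 10, a boundary chosen after the values were seen, 22 of 25 tested genes of paralogues 1 to 9 were negative (median -0.58) and 7 of 8 of paralogues 10 to 13 were positive (median 0.76). Without mutant library 4 the count in paralogues 10 to 13 was 5 positive and 3 negative, with a median of 0.44. The sign of Hoxc10, at -0.01, turned positive with library size alone, with limma-voom and with a replicate block. These counts describe the fold changes and carry no test of their own.

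**Figure D1:**
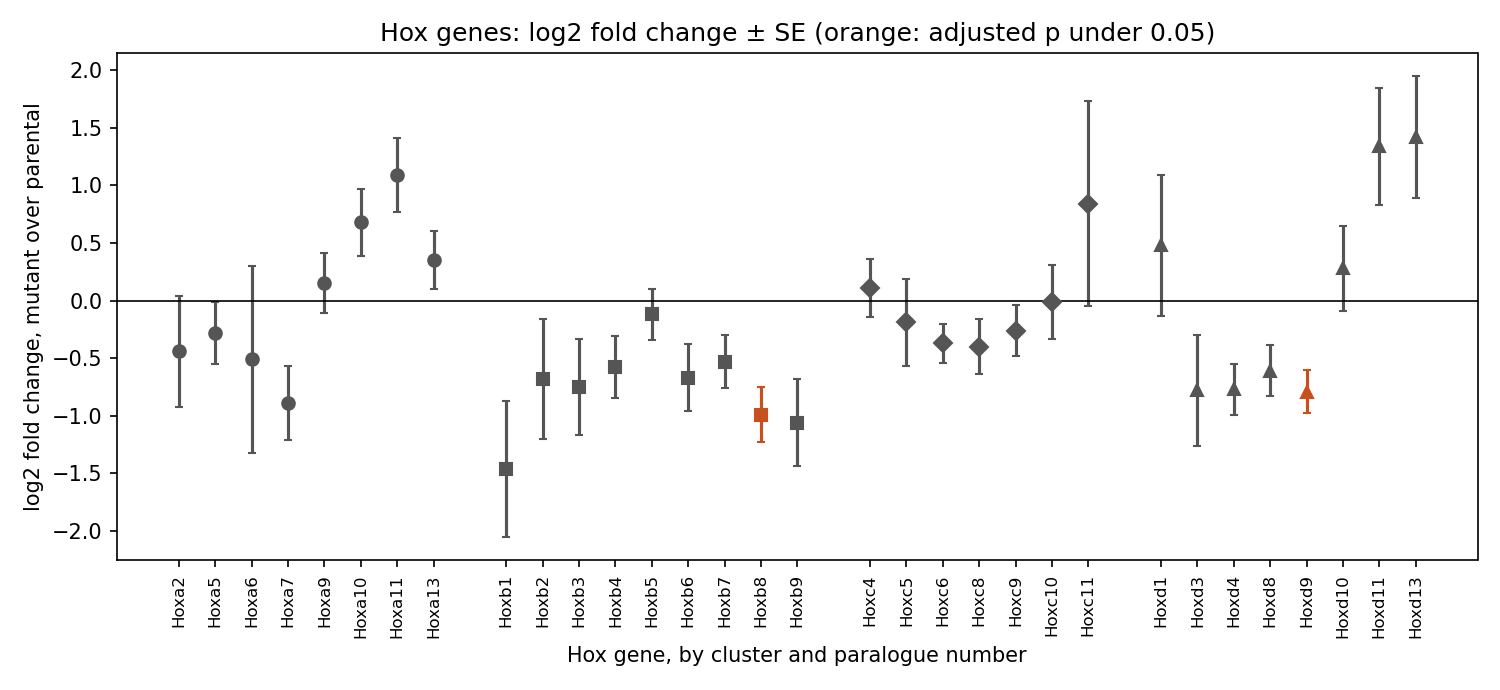
Log2 fold change of mutant over parental for the tested Hox genes described here, in paralogue order within HoxA to HoxD, with bars of 1 standard error from the edgeR fit. Orange points mark Hoxb8 and Hoxd9, the called genes, and the 9 tested HoxB genes all lie below 0.

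In HoxB, on the + strand of chromosome 11, all 9 tested genes had negative fold changes, from -1.46 for Hoxb1 to -0.12 for Hoxb5, under every setting tried, and 1 of them, Hoxb8, was called. Hoxb8, at chr11:96281905-96285315 (GRCm38, + strand), is a central Hox gene with known roles in axial patterning and in blood progenitors. It measured 48.9, 78.6, 79.5 and 94.8 CPM in parental libraries 1 to 4 and 35.3, 59.3, 24.0 and 34.1 CPM in mutant libraries 1 to 4. Mutant library 2 alone reached into the parental range, above parental library 1. The mean fell from 75.4 ± 19.2 CPM to 38.2 ± 15.0 CPM (SD, n = 4 each), a change of -0.99 ± 0.24 on the log2 scale (edgeR adjusted p = 0.0489). The edgeR call was lost when any one of parental libraries 2, 3 and 4 or mutant libraries 1, 3 and 4 was left out (adjusted p from 0.0750 to 0.162), with library size alone (0.0717) and with a stricter count filter (0.0502).

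Hoxb1, at chr11:96365752-96368256, is the anterior end of the cluster, patterns the hindbrain and marks second heart field cells. Hoxb1 measured 23.1, 30.7, 50.7 and 23.6 CPM in the parental libraries and 5.21, 36.4, 2.36 and 2.75 CPM in the mutant libraries. Mutant libraries 1, 3 and 4 lay below every parental library, while mutant library 2 lay inside the parental range. The log2 fold change of -1.46 ± 0.59 was not called (edgeR adjusted p = 0.313), while limma-voom called it at -2.38 (adjusted p = 0.0242). DESeq2 gave Hoxb1 no adjusted p.

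Hoxb2, a hindbrain gene, measured 7.46, 8.43, 3.83 and 9.69 CPM in the parental and 4.54, 1.74, 5.99 and 6.05 CPM in the mutant libraries, and the lines overlapped. Hoxb3, which acts in the hindbrain and pharyngeal arches, measured 20.4, 18.1, 17.2 and 19.2 CPM in the parental libraries and 6.89, 26.1, 4.54 and 7.15 CPM in the mutant libraries. As for Hoxb1, mutant library 2 was high and mutant libraries 1, 3 and 4 were below every parental library. Hoxb4, best known for its action in blood stem cells, measured 32.0, 35.0, 48.2 and 50.6 CPM in the parental and 28.7, 45.3, 21.3 and 15.4 CPM in the mutant libraries.

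Hoxb5, expressed in trunk mesoderm and enteric neurons, measured 22.7, 30.1, 32.4 and 37.7 CPM in the parental and 21.2, 28.8, 27.6 and 35.7 CPM in the mutant libraries, nearly the same range. Hoxb6, a trunk gene expressed in lateral plate mesoderm, measured 14.001, 18.8, 31.6 and 26.5 CPM against 13.1, 15.3, 11.1 and 17.9 CPM, parental before mutant. Hoxb7 measured 41.8, 47.5, 50.9 and 34.8 CPM in the parental and 36.8, 37.7, 17.1 and 29.97 CPM in the mutant libraries. For each of these genes the lines overlapped, with edgeR adjusted p of 0.890 for Hoxb5, 0.352 for Hoxb6 and 0.365 for Hoxb7.

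Hoxb9, which patterns the thoracic skeleton, measured 66.7, 114, 153 and 181 CPM in the parental libraries and 47.9, 138, 27.4 and 34.1 CPM in the mutant libraries. The log2 fold change was -1.06 ± 0.38 (edgeR adjusted p = 0.222), again with mutant library 2 inside the parental range and the other mutant libraries below it. Hoxb13, at the far 5′ end and separated from the rest of HoxB, had 0 counts in every library.

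The number of Hox genes called lower by edgeR, 2 in the main fit, changed with the library left out. It was 0 without parental library 3 or 4, or without mutant library 1, 3 or 4. Without mutant library 2 it was 7: Hoxa7, Hoxb1, Hoxb3, Hoxb8, Hoxb9, Hoxd4 and Hoxd9. Hoxb1 then had a log2 fold change of -3.20 (edgeR adjusted p = 0.000227) and Hoxb9 one of -1.82 (edgeR adjusted p = 0.00146). Hoxa11 was called higher in that fit, at 1.31 (edgeR adjusted p = 0.0311). Markers of paraxial and presomitic mesoderm varied over the same libraries. That 8-gene list summed to 31.8, 54.0, 54.1 and 33.9 CPM in the parental libraries and to 16.6, 66.0, 6.90 and 7.15 CPM in the mutant libraries, with mutant library 2 again high, and its part in the Hox values was not tested. Of that list 6 genes were tested, all 6 had negative fold changes and none was called by edgeR (1 at an unadjusted p under 0.05), and its presomitic marker Msgn1 was at 0 in all 8 libraries. At that p, 5.92% of all tested genes were lower. Mutant library 2 was also the highest mutant library for the neural list, at 35.3 CPM with the others at 13.3 to 25.8 CPM. The neural crest list did the same, at 9.15 CPM with the others at 3.81 to 5.77 CPM, and the remaining marker lists did not.

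**Figure D2:**
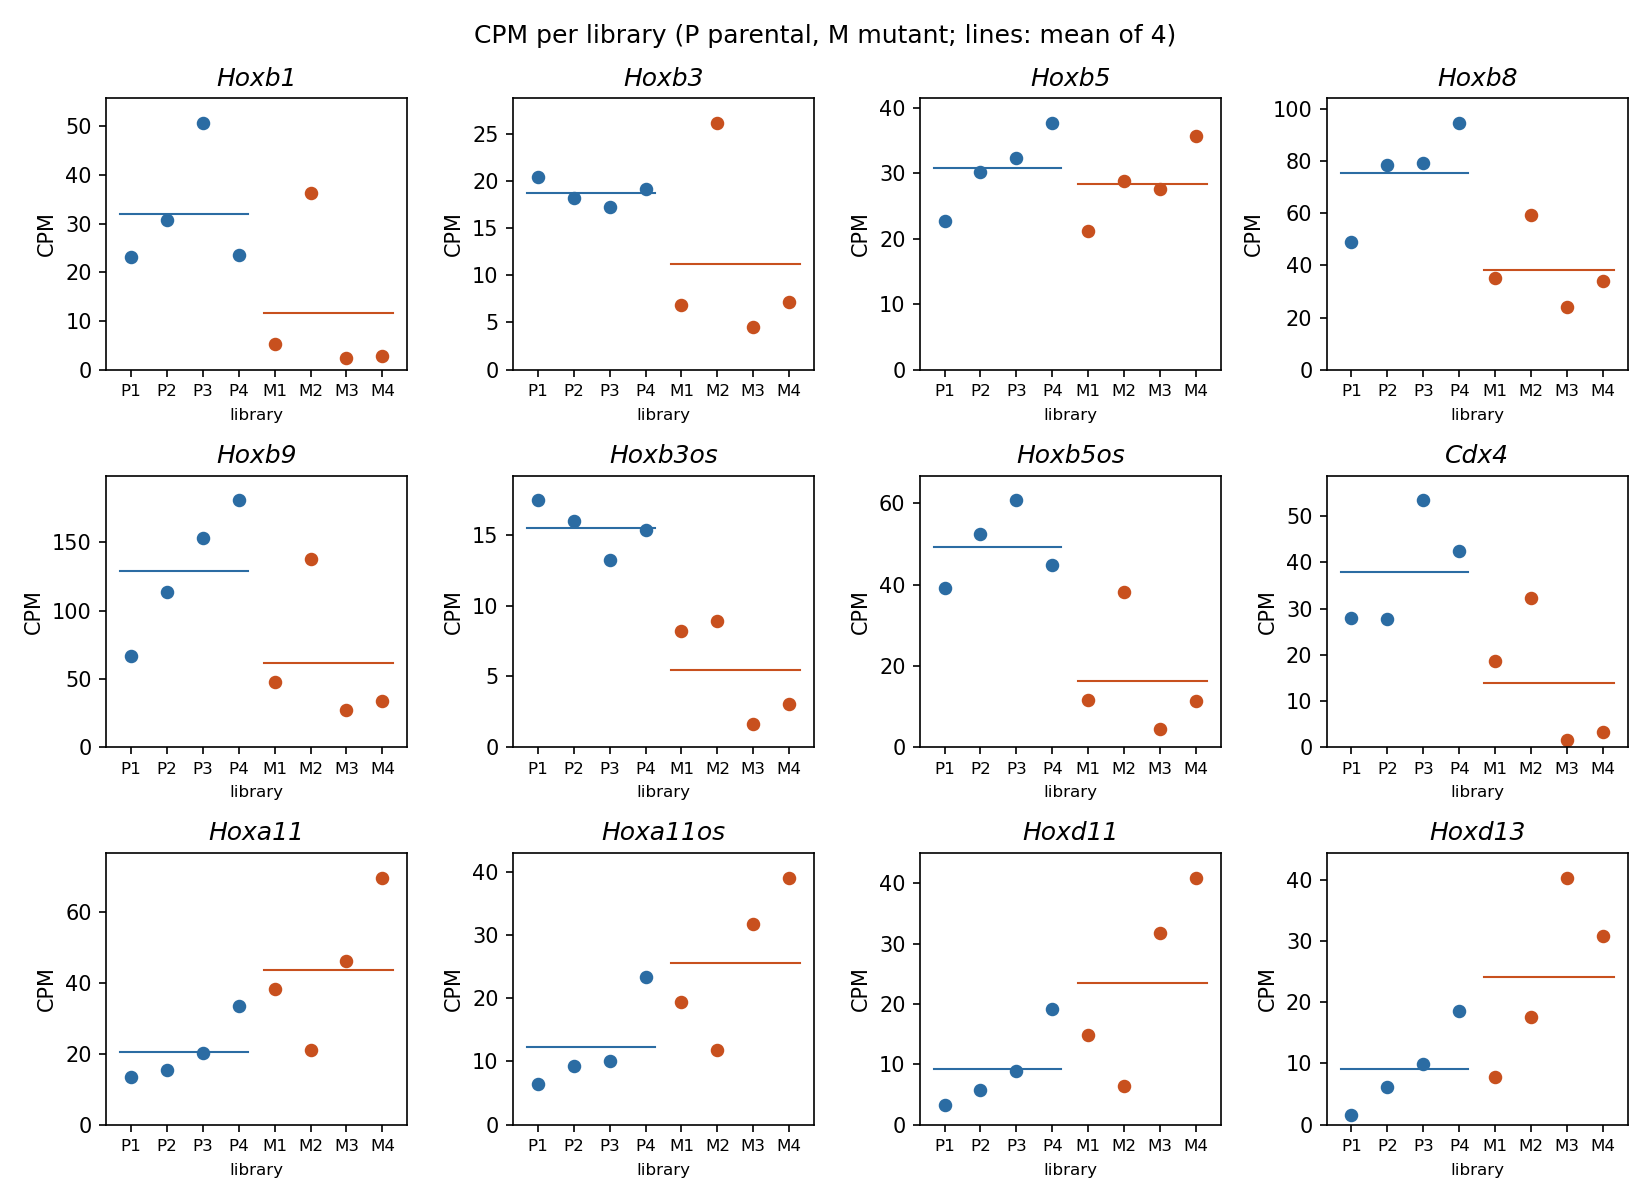
CPM of 8 Hox genes, 3 antisense RNA genes and Cdx4 in each of the 8 libraries, with lines at the mean of each line's 4 libraries and each vertical axis starting at 0. Mutant library 2 is the highest mutant library for Hoxb1, Hoxb3, Hoxb8, Hoxb9 and Cdx4, while the posterior genes Hoxd11 and Hoxd13 are highest in mutant libraries 3 and 4.

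In HoxA, on the - strand of chromosome 6, 5 of 9 tested genes had negative and 4 had positive fold changes, and none was called by edgeR (1 lower and 2 higher at an unadjusted p under 0.05). At that p, 5.92% of all tested genes were lower and 6.01% higher. Hoxa2, which sets the identity of the second pharyngeal arch, measured 7.46, 7.71, 10.4 and 4.21 CPM in the parental and 3.02, 8.06, 4.18 and 6.87 CPM in the mutant libraries. Its lines overlapped. Hoxa3, which acts in pharyngeal organs, ranged from 0 to 1.12 CPM in the parental and from 0 to 6.05 CPM in the mutant libraries, and Hoxa4 from 0 to 2.36 CPM over all 8, so neither had counts enough to be tested.

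Hoxa5, which acts in lung and skeletal patterning, measured 22.2, 38.8, 56.5 and 65.1 CPM in the parental and 27.5, 49.5, 32.3 and 41.8 CPM in the mutant libraries. Hoxa6 was low in both lines, at 6.36, 2.33, 5.43 and 2.32 CPM in the parental and 3.36, 6.10, 2.00 and 0 CPM in the mutant libraries. Hoxa7, a trunk gene, measured 35.8, 54.5, 59.4 and 72.3 CPM in the parental libraries and 23.2, 57.5, 13.6 and 25.8 CPM in the mutant libraries, a log2 fold change of -0.89 ± 0.32 (edgeR adjusted p = 0.228). Its mutant values had the shape seen in HoxB, with library 2 inside the parental range and libraries 1, 3 and 4 below it.

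From Hoxa9 onwards the HoxA fold changes were positive, except that Hoxa9 stood at -0.05 without parental library 1. Hoxa9, known for its part in blood progenitors and leukaemia, measured 61.6, 79.1, 115 and 192 CPM in the parental and 85.2, 141, 122 and 152 CPM in the mutant libraries. At 0.15 ± 0.26 its log2 fold change was smaller than its error. Hoxa10, which patterns the lumbar skeleton, hindlimb and uterus, measured 16.5, 26.0, 39.6 and 51.8 CPM in the parental and 34.1, 46.6, 60.1 and 74.5 CPM in the mutant libraries (0.68 ± 0.29, edgeR adjusted p = 0.347). The ranges overlapped although the mutant mean was higher.

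Hoxa11, at chr6:52242106-52245810 (- strand), patterns the middle segment of the limb. It measured 13.3, 15.2, 20.3 and 33.3 CPM in the parental libraries and 38.3, 20.9, 46.0 and 69.6 CPM in the mutant libraries, with mutant library 2 the only one inside the parental range. The log2 fold change of 1.09 ± 0.32 was not called (edgeR adjusted p = 0.115), though DESeq2 did call it. Hoxa13, a gene of the hand, foot and hindgut, measured 11.8, 14.2, 18.4 and 19.4 CPM in the parental and 20.3, 21.6, 21.3 and 17.9 CPM in the mutant libraries, which overlapped through mutant library 4.

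In HoxC, on the + strand of chromosome 15, 5 of 7 tested genes were negative and the median was -0.19, with none called by edgeR (1, Hoxc6, lower at an unadjusted p under 0.05). At that p, 5.92% of all tested genes were lower. Hoxc4, the most anterior gene of this cluster, measured 20.7, 36.1, 26.0 and 44.9 CPM in the parental and 24.0, 41.6, 32.7 and 39.9 CPM in the mutant libraries. Hoxc5 measured 8.36, 9.69, 9.73 and 20.9 CPM in the parental and 9.74, 13.1, 6.18 and 13.7 CPM in the mutant libraries. Neither gene differed beyond its error. Hoxc6, a thoracic and forelimb-level gene, measured 99.1, 142, 176 and 184 CPM in the parental and 98.3, 135, 126 and 104 CPM in the mutant libraries (-0.37 ± 0.17, edgeR adjusted p = 0.387).

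Hoxc8, which patterns the thoracic skeleton and its motor neurons, measured 75.1, 111, 169 and 143 CPM in the parental and 78.6, 114, 53.4 and 132 CPM in the mutant libraries. Hoxc9, known to fix thoracic motor neuron identity, measured 70.9, 94.7, 94.5 and 135 CPM in the parental and 49.1, 106, 71.6 and 104 CPM in the mutant libraries. Both genes overlapped broadly between the lines. Hoxc10, a hindlimb-level gene, had nearly equal means (34.2 ± 21.6 and 33.9 ± 1.73 CPM, SD, n = 4 each) from unequal spreads: 12.4, 24.6, 37.2 and 62.8 CPM in the parental libraries and 32.4, 34.2, 32.9 and 36.3 CPM in the mutant libraries. Hoxc11, also posterior, measured 0, 3.05, 4.95 and 9.90 CPM in the parental and 1.34, 1.09, 10.7 and 19.2 CPM in the mutant libraries. Hoxc12 had 0 counts in every library and Hoxc13 at most 1.31 CPM, so neither was tested. A count of 0 here allows up to 3 counts, or 0.824741 CPM in the shallowest library.

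HoxD, on the + strand of chromosome 2, was divided: 4 of 8 tested genes were negative and 4 positive, and the single called gene was Hoxd9. Hoxd1, an anterior gene, was scarce, at 3.09, 2.87, 5.90 and 1.69 CPM in the parental and 5.54, 2.83, 3.81 and 6.87 CPM in the mutant libraries. Hoxd3, which acts in the cervical skeleton, measured 6.55, 13.99, 13.6 and 21.7 CPM in the parental and 8.57, 10.9, 11.1 and 1.37 CPM in the mutant libraries. Hoxd4, an anterior gene of the neck and hindbrain with a retinoic acid-responsive enhancer, had the highest mean CPM of the Hox genes in each line in this count of 3′ ends, though not the highest value in mutant libraries 3 and 4. It measured 145, 265, 256 and 300.04 CPM in the parental libraries and 116, 219, 117 and 113 CPM in the mutant libraries. Mutant libraries 1, 3 and 4 lay below every parental library and mutant library 2 inside their range, and the log2 fold change of -0.77 ± 0.22 was not called (edgeR adjusted p = 0.0892). Hoxd3 and Hoxd4 share 62.3% and 52.3% of their annotated exonic bases with genes on the same strand but none of their last 300 bases, so how reads in the shared part were assigned is uncertain.

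Hoxd8, a trunk gene, measured 39.8, 70.7, 81.1 and 79.2 CPM in the parental and 51.9, 39.7, 33.2 and 53.3 CPM in the mutant libraries (-0.61 ± 0.22, edgeR adjusted p = 0.222). Hoxd9, at chr2:74697727-74700208, acts in the lumbar spine and proximal limb. It measured 60.6, 48.3, 70.2 and 74.0 CPM in the parental libraries and 29.6, 47.3, 33.4 and 36.0 CPM in the mutant libraries. Every mutant library was below every parental library, by a narrow margin between mutant library 2 and parental library 2, and Hoxd9 was the only Hox gene whose lines did not overlap (4.04% of all tested genes were lower without overlap and 3.49% higher). The mean fell from 63.2 ± 11.5 CPM to 36.6 ± 7.62 CPM (SD, n = 4 each), a change of -0.79 ± 0.19 on the log2 scale (edgeR adjusted p = 0.0428). The edgeR call was lost when any one of parental libraries 1, 3 and 4 or mutant libraries 1, 3 and 4 was left out (adjusted p from 0.0555 to 0.156) and with library size alone (0.0576).

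The 5′ HoxD genes, which shape the digits and the genital bud, had positive fold changes and wide spreads. Hoxd10 measured 10.4, 15.4, 14.04 and 22.8 CPM in the parental and 7.90, 13.1, 22.3 and 33.3 CPM in the mutant libraries. Hoxd11 measured 3.27, 5.74, 8.94 and 19.2 CPM in the parental and 14.8, 6.32, 31.8 and 41.0 CPM in the mutant libraries (1.34 ± 0.51, edgeR adjusted p = 0.274). In both genes mutant libraries 3 and 4 were the high ones. Hoxd12 stayed at 3.19 CPM or less and was not tested. Hoxd13, at chr2:74668310-74671599, measured 1.64, 6.10, 9.89 and 18.5 CPM in the parental libraries and 7.73, 17.7, 40.3 and 30.8 CPM in the mutant libraries. Its log2 fold change of 1.42 ± 0.53, the highest among the tested Hox genes, was not called (edgeR adjusted p = 0.253), and mutant libraries 1 and 2 overlapped the parental range.

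**Figure D3:**
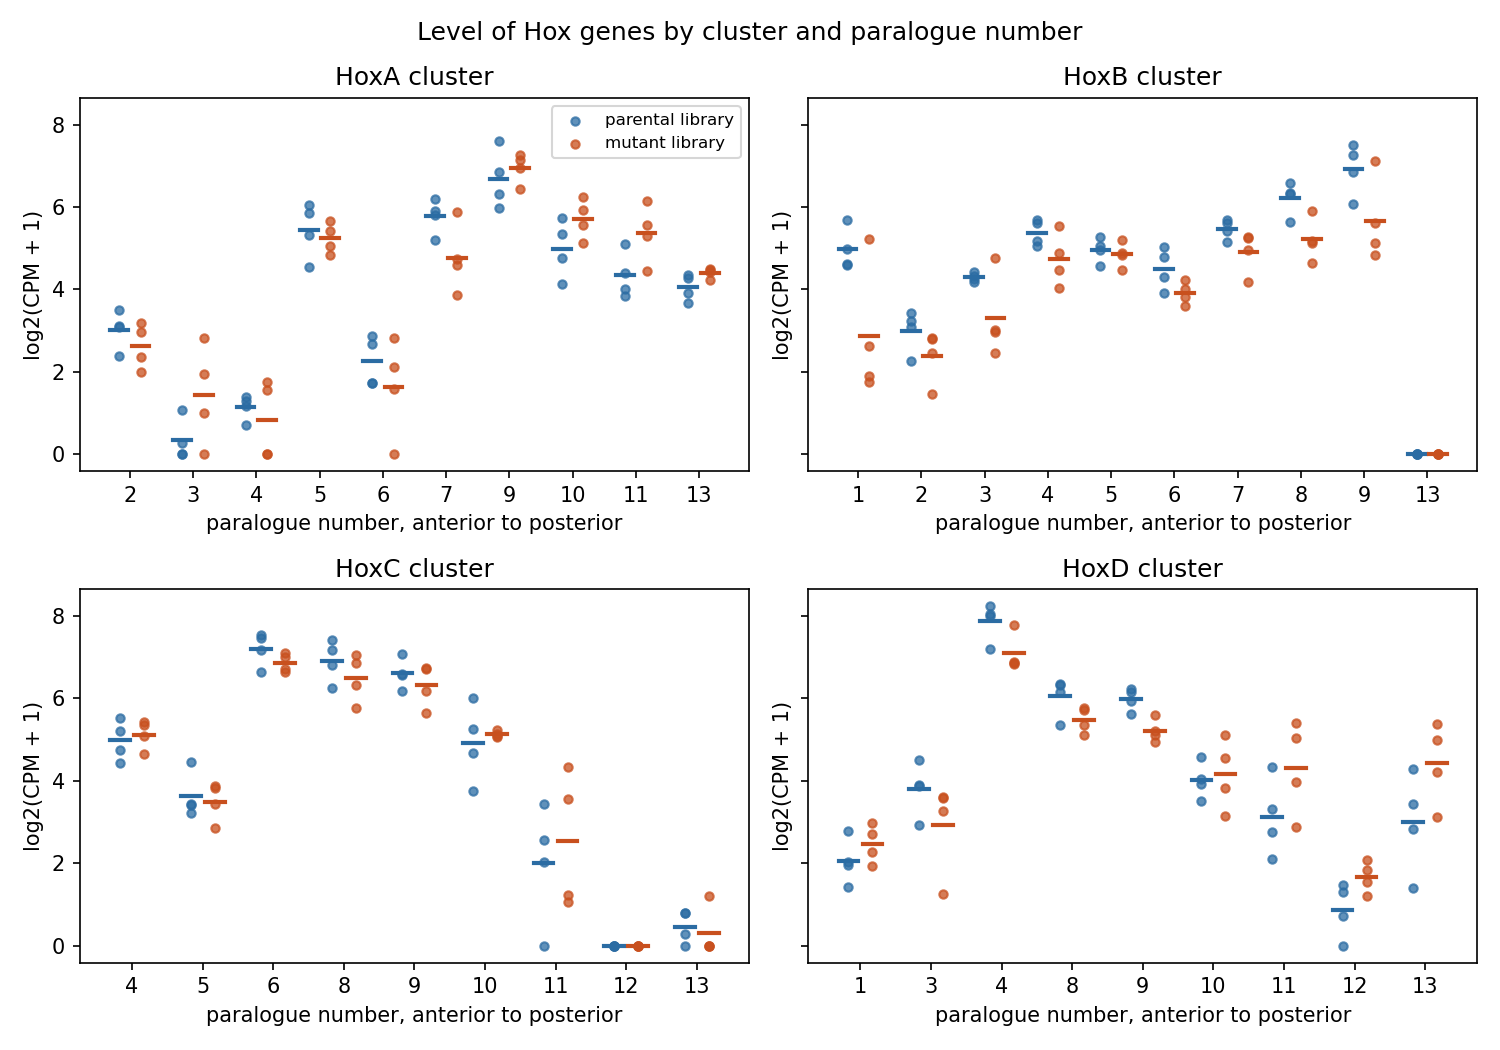
Level of the Hox genes described here in every library as log2(CPM + 1), by cluster and paralogue number, with points for libraries and short lines for the mean of the 4 log values of a line. Hoxd4 has the highest mean level in both lines, and Hoxd9 is the only gene whose lines do not overlap.

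Summed over all 39 genes, Hox CPM was 1016, 1477, 1782 and 2062 in the parental libraries and 976, 1554, 1074 and 1351 in the mutant libraries, a log2 ratio of means of -0.35 with overlapping ranges. The parental libraries thus spanned a wide range of their own, with parental library 1 the lowest. By cluster the log2 ratio was 0.11 for HoxA, -0.81 for HoxB, -0.26 for HoxC and -0.48 for HoxD. By position it was -0.66 for paralogues 1 to 4, -0.50 for 5 to 8 and -0.03 for 9 to 13. Every one of these sums overlapped between the lines.

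Shares of the Hox counts within a library do not depend on the library's total. HoxA took 17.7%, 16.6%, 18.8% and 21.6% of Hox counts in the parental libraries and 24.4%, 23.2%, 28.3% and 29.7% in the mutant libraries, with no overlap. The nearest libraries were parental 4, with an exact 95% interval from 20.8% to 22.5%, and mutant 2, with one from 22.2% to 24.2%. These intervals overlap, and they cover counting error only. A share also depends on the counts of the other clusters. The summed HoxA CPM overlapped between the lines, at 180 to 446 in the parental and 239 to 401 in the mutant libraries. HoxB took 27.3%, 25.8%, 26.2% and 23.2% in the parental and 20.4%, 25.0%, 13.2% and 13.6% in the mutant libraries, where mutant library 2 overlapped the parental range. Paralogues 10 to 13, the grouping chosen after the values were seen, took 7.04%, 7.52%, 8.69% and 11.6% in the parental and 16.4%, 10.6%, 24.9% and 24.0% in the mutant libraries. Here too the overlap came from mutant library 2, which lay below parental library 4.

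**Figure D4:**
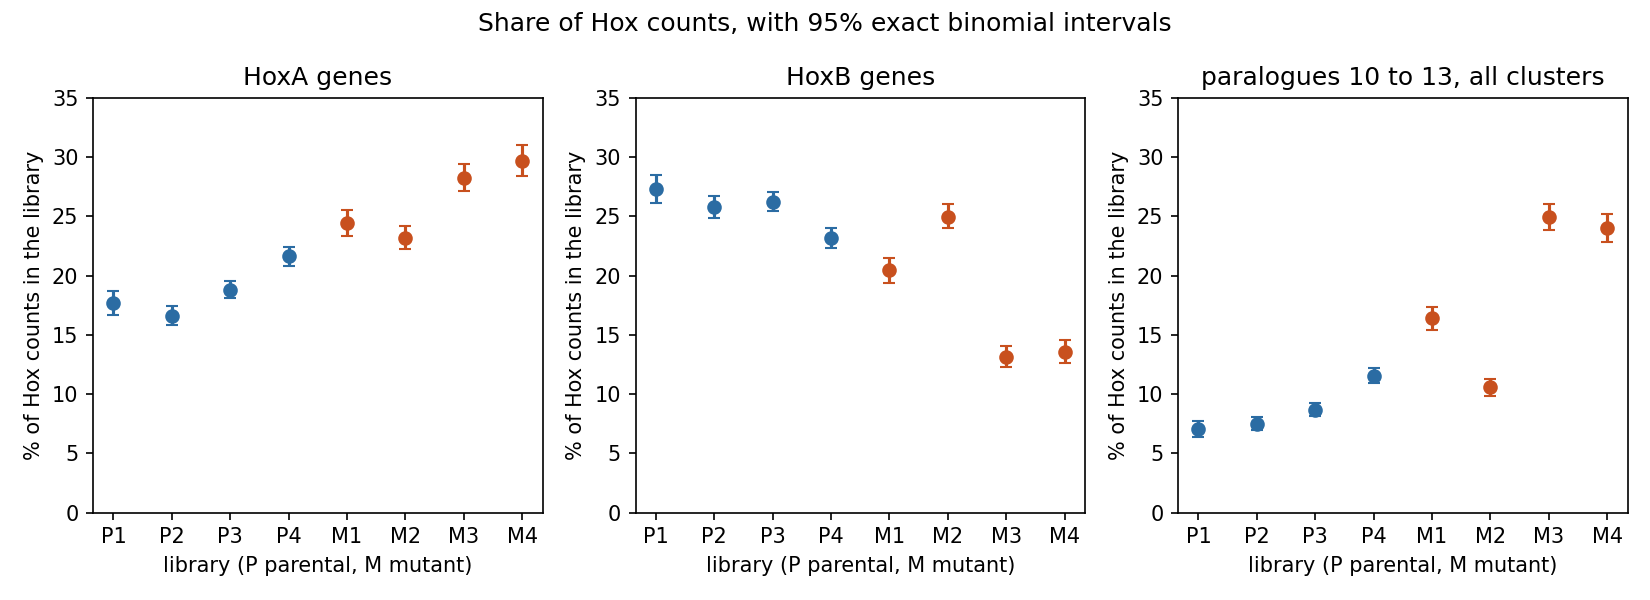
Share of each library's Hox counts, in percent, taken by HoxA, by HoxB and by paralogues 10 to 13 of all clusters, for the 4 parental and 4 mutant libraries, with exact 95% intervals as bars. The HoxA share runs from 16.6% to 21.6% in the parental and from 23.2% to 29.7% in the mutant libraries, and HoxB is lowest in mutant libraries 3 and 4.

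Genes that are known to act on the clusters were read from the same fit, with the lists named by their role. Among the Cdx and other ParaHox genes 2 of 6 were tested, and Cdx2, a caudal factor that sets the posterior Hox code, fell. It measured 103, 138, 109 and 181 CPM in the parental libraries and 59.1, 99.4, 67.4 and 69.0 CPM in the mutant libraries, with no overlap (-0.85 ± 0.19, edgeR adjusted p = 0.0236). The edgeR call was lost without parental library 2, parental library 4, mutant library 1 or mutant library 3 (adjusted p from 0.0813 to 0.0979). Cdx4, its partner in the tail bud, measured 28.0, 27.8, 53.5 and 42.4 CPM in the parental and 18.6, 32.2, 1.63 and 3.30 CPM in the mutant libraries (-1.43 ± 0.54, edgeR adjusted p = 0.266), with mutant libraries 3 and 4 close to 0. Cdx1 and Pdx1 were too scarce to test and Gsx1 and Gsx2 had 0 counts.

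Among 15 retinoic acid genes 13 were tested, 5 with positive and 8 with negative fold changes, and Crabp1 fell. Crabp1, a binding protein that holds retinoic acid in the cytoplasm, measured 112, 140.3, 172 and 145 CPM in the parental libraries and 37.0, 103, 37.1 and 38.5 CPM in the mutant libraries (-1.40 ± 0.26, edgeR adjusted p = 0.00787). Mutant library 2 was the high one here as well, though still below every parental library. Crabp2, which carries retinoic acid to its receptors, had means of 83.5 ± 22.7 CPM in the parental and 87.1 ± 30.8 CPM in the mutant line. Rdh10, which makes retinaldehyde for retinoic acid synthesis, measured 28.2, 36.4, 57.3 and 64.3 CPM in the parental and 51.6, 75.4, 127 and 126 CPM in the mutant libraries (1.03 ± 0.27, edgeR adjusted p = 0.0745).

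Of the 9 TALE partners 8 were tested and none was called by edgeR, with 1 higher and 1 lower at an unadjusted p under 0.05. Of all tested genes, 6.01% were higher and 5.92% lower at that p, and 3.49% were higher without overlap. Meis2 had means of 243 ± 61.2 CPM in the parental and 305 ± 48.1 CPM in the mutant line. Pbx3 measured 129.8, 132, 134 and 138 CPM in the parental and 163, 161, 199.6 and 193 CPM in the mutant libraries, without overlap, but was not called (0.43 ± 0.11, edgeR adjusted p = 0.0784). DESeq2 did call Pbx3. Of 9 other upstream regulators 7 were tested, all with negative fold changes and a median of -1.21, and none was called by edgeR (4 lower at an unadjusted p under 0.05). Among them Gdf11, a ligand that sets the trunk-to-tail transition, had means of 36.5 ± 9.14 CPM in the parental and 34.9 ± 1.86 CPM in the mutant line.

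All 14 Polycomb genes were tested and none was called by edgeR or reached an unadjusted p under 0.05, with a median log2 fold change of -0.04. The most abundant were the methyltransferase Ezh2 (303 ± 48.3 CPM parental, 277 ± 19.9 CPM mutant), its recruiting partner Jarid2 (229 ± 13.7 and 194 ± 27.3 CPM) and the core subunit Suz12 (145 ± 24.1 and 140.4 ± 8.68 CPM). Among the 8 trithorax and demethylase genes, all tested, none was called by edgeR and 1 was higher at an unadjusted p under 0.05. At that p, 6.01% of all tested genes were higher. Without overlap 1 of the 8 was higher and 1, Kdm6b, was lower, against 3.49% and 4.04% of all tested genes. Kmt2a, the methyltransferase that maintains Hox expression, had means of 337 ± 43.9 CPM and 355 ± 25.4 CPM, Kdm6b, an H3K27 demethylase, of 179 ± 14.7 and 153 ± 10.8 CPM, and Ash2l, a subunit of the methyltransferase complex, of 145 ± 19.5 and 141 ± 26.8 CPM, parental before mutant.

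Noncoding genes inside the clusters, many of them transcribed antisense to Hox genes, were read as their own rows. Of 17 such rows 7 were tested, 5 with negative and 2 with positive fold changes, and none was called by edgeR (4 lower and 1 higher at an unadjusted p under 0.05). Of all tested genes, 5.92% were lower and 6.01% higher at that p, and 4.04% were lower without overlap. Hoxb5os measured 39.3, 52.4, 60.8 and 44.9 CPM in the parental and 11.6, 38.1, 4.54 and 11.3 CPM in the mutant libraries, without overlap (-1.60 ± 0.41, edgeR adjusted p = 0.0584). Hoxb3os measured 17.5, 15.97, 13.2 and 15.4 CPM in the parental and 8.23, 8.93, 1.63 and 3.02 CPM in the mutant libraries, also without overlap (-1.49 ± 0.44, edgeR adjusted p = 0.115). Where Hoxb3 itself in mutant library 2 exceeded every parental library, Hoxb3os there stayed below them all. Hoxaas3, in HoxA, measured 29.1, 51.3, 69.1 and 56.9 CPM in the parental and 12.3, 45.8, 6.90 and 27.8 CPM in the mutant libraries (-1.17 ± 0.40, edgeR adjusted p = 0.198).

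At the 5′ end of HoxA, Hoxa11os measured 6.36, 9.33, 10.1 and 23.4 CPM in the parental and 19.3, 11.8, 31.8 and 39.04 CPM in the mutant libraries (1.06 ± 0.39, edgeR adjusted p = 0.260), the same sign as Hoxa11. The most abundant noncoding gene, Hoxd3os1, had means of 114 ± 24.0 and 89.9 ± 19.8 CPM, parental before mutant. The long noncoding RNA genes Hotair and Hottip stayed at 3.02 CPM or less and the microRNA rows at 0.872 CPM or less. Antisense genes lie opposite Hox exons, and their counts rest on the strand setting of the count, which only the name of the deposited table gives as forward.

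Genes listed as flanking the clusters, whose distances from them were not measured here, showed no called difference. Of 15 measured flanking genes 13 were tested, 6 with positive and 7 with negative fold changes, with a median of 0.0 and 1 lower at an unadjusted edgeR p under 0.05. At that p, 5.92% of all tested genes were lower. The most abundant were Cbx1 of the HoxB region (564 ± 80.0 CPM parental, 511 ± 63.3 CPM mutant), Calcoco1 of the HoxC region (183 ± 20.7 and 178 ± 53.2 CPM) and Hnrnpa3 of the HoxD region (178 ± 18.5 and 177 ± 26.5 CPM). Evx1 and Evx2, homeobox genes next to Hoxa13 and Hoxd13, measured 45.4 ± 10.2 and 31.2 ± 12.1 CPM for Evx1 and 2.72 ± 1.36 and 6.37 ± 2.75 CPM for Evx2, parental before mutant, with edgeR adjusted p of 0.409 and 0.438.

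The posterior lateral plate, limb and allantois list, whose cells carry 5′ Hox genes in the embryo, summed to 904 to 1064 CPM in the parental and 767 to 1033 CPM in the mutant libraries, which overlapped. Hand1, which the cardiac list also holds, led that sum, with a mean of 615 of 959 CPM in the parental and 469 of 905 CPM in the mutant line. All 5 genes of the list were tested. At an unadjusted edgeR p under 0.05, 3 were higher and 2 lower, against 6.01% and 5.92% of all tested genes. The higher ones were Tbx4, Pitx1 (0.37 ± 0.14) and Tbx3 (0.49 ± 0.22), and the lower pair was Isl1 and Hand1, given above. The single call was for Tbx4, where 0.745% of all tested genes were called higher. Tbx4, a T-box factor of hindlimb and allantois, rose, from 13.5, 20.3, 14.2 and 34.6 CPM in the parental libraries to 80.3, 35.5, 55.9 and 73.4 CPM in the mutant libraries (1.58 ± 0.29, edgeR adjusted p = 0.00671). Whether the cells behind Tbx4 are those behind the 5′ Hox counts was not tested.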

How the data were processed

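The authors deposited 1 table of raw gene counts from 8 QuantSeq libraries; the submitters' processing notes name STAR, featureCounts and the build mm10, with versions and settings not given in the sources used here. Row IDs were matched to symbols in the GENCODE M21 annotation (GRCm38) without their version, 55141 of 55487 with a symbol. Counts were fitted with edgeR 4.0.16 in R 4.3.3 (filterByExpr defaults, TMM, quasi-likelihood test of mutant against parental, two-sided, Benjamini-Hochberg over 13280 genes, which hold 99.5% of counts). The script was tested on simulated data. limma 3.58.1, DESeq2 1.42.0, other scalings and filters and each library left out were tried. The Hox members and all lists were chosen with earlier results of these data known. Named were Tbx1, every Hox gene with a mean of 10 counts or more in full, the other Hox genes by range, and of each list the called genes and the 3 with the highest mean CPM, with further genes chosen after their values were seen (Cdx4, Pbx3, Evx1, Evx2, Hoxb3os, Hoxa11os and the markers). A few genes that this rule names are not reported here. Intervals are Clopper-Pearson at 95%. Over all tested genes together, replicate numbers showed no pairing: correlations of deviations for same-numbered libraries ran from -0.033 to 0.102. Pairing within single genes was not tested.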

Additional observations from a re-analysis of the deposited data

Results flagged for a closer look

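In a group of 4 libraries, a value was singled out when its gap to the nearest other library, as a share of the group's range, passed Dixon's 95% critical value. Of 102 groups 6 met it, and chance alone gives about 1 in 20. Mutant library 2 stood apart in 4 of the 6: Hoxb1 was at 36.4 CPM with the other mutant libraries at 2.36 to 5.21 CPM, Hoxb3 at 26.1 CPM with the others at 4.54 to 7.15 CPM, Hoxd4 at 219 CPM with the others at 113 to 117 CPM, and the summed CPM of paralogues 1 to 4 at 402 with the others at 206 to 212. These values are not independent, since Hoxb1, Hoxb3 and Hoxd4 enter that sum. Hoxc5 was at 20.9 CPM in parental library 4, with the other parental libraries at 8.36 to 9.73 CPM. Haglr, an antisense RNA gene of HoxD, was at 13.3 CPM in mutant library 1, with the other mutant libraries at 20.9 to 21.8 CPM.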

How the results depend on the processing

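The number of Hox genes called lower (2) was 2 with RLE size factors or DESeq2. It was 3 with limma-voom (Hoxb1, Hoxb8 and Hoxd9), 3 with the replicate number as a block (Hoxb1, Hoxb8 and Hoxd4), 1 with a mean of at least 10 counts, 0 with library size alone and 7 with no count filter, and leaving out each library gave 0 to 7. Hox genes called higher (0) numbered 4 with no filter, 1 with DESeq2 and 3 with the replicate block (Hoxa10, Hoxa11 and Hoxd13), and 0 to 1 with a library left out. In that block fit Hoxd9 was not called (edgeR adjusted p = 0.0529). All genes called (188) numbered 439 with no filter and 399 with DESeq2, and 103 to 235 with a library left out. Regulator and noncoding genes called (2) numbered 11 with no filter, 4 with DESeq2, 5 with limma-voom and 5 with the replicate block, and 1 to 6 with a library left out. The cause of these differences was not tested. The summed Hox log2 ratio ran from -0.52 to -0.20. Over all refits of single genes, 485 kept direction with no call gained or lost, 24 gained a call, 20 lost one and 11 changed sign. The 485 include the DESeq2 fits of Hoxa6 and Hoxb1, which gave no adjusted p. The sign changes were Hoxc10 (0.03 with library size alone, 0.24 with limma-voom, 0.20 with the block) and 6 genes with a library left out. Over those fits Hoxc10 ran from -0.29 to 0.45, Hoxa9 from -0.05 to 0.54, Hoxc4 from -0.05 to 0.32, Hoxc5 from -0.34 to 0.20, Hoxc11 from -0.02 to 1.57 and Hoxd10 from -0.12 to 0.54. Scalings and filters moved the median of all genes by 0.02 or less. Crabp1 was called in every fit (highest edgeR adjusted p 0.0418). Depth limits the genes under about 10 counts, which include the 6 untested Hox genes.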
